A study of Mus musculus with 2 samples.

Results

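The genes described here move acid and base across kidney cells: subunits of the proton pump, carbonic anhydrases, bicarbonate and anion exchangers, sodium-proton exchangers and ammonia transporters. The 46 genes were chosen by symbol, and 46 of 46 were found among the 43346 gene rows of each table. Polyadenylated RNA had been read from whole kidney of 1 female C57BL/6J mouse, an inbred strain, at 10 weeks of age, with no treatment, allele or other tissue named in the labels. The data are 2 libraries of that 1 tissue sample, called library 1 and library 2 after their technical replicate numbers, and they form 1 group. The only comparison is therefore library 2 with library 1, and its p-values measure differences between these libraries and not between animals or conditions.

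The vacuolar proton pump (V-ATPase) has a cytosolic part, V1, which splits ATP, and a membrane part, V0, through which protons pass. Every cell uses it to acidify lysosomes and endosomes, and intercalated cells of the collecting duct also place it in the surface membrane to secrete acid into urine. Carbonic anhydrases supply the protons and the bicarbonate, and exchangers of the SLC4 and SLC26 families, the sodium-proton exchangers of the SLC9 family and the Rh ammonia transporters carry bicarbonate, protons and ammonia across the cell membranes.

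Library 1 held 28263730 expected counts (estimated reads per gene) and library 2 held 20720537. Levels are in TPM, a share of each library corrected for transcript length. Mitochondrially encoded genes and their nuclear copies, 44 genes in all, accounted for 74.5% of the TPM of library 1 and 36.5% of that of library 2, so the share left to all other genes differed between the libraries. For the 46 genes the summed TPM was 1453 in library 1 and 4545 in library 2, or 0.57% and 0.716% of the TPM that remained without those 44 genes. Ratios between the libraries were therefore taken from counts scaled by TMM, a method that sets the bulk of genes level, and are given as log2 of library 2 over library 1. Calls needed at least a 2-fold ratio and an exact binomial test with p under 0.05 after Benjamini-Hochberg adjustment over 15553 genes. This rule called 60.5% of all genes tested, with library 2 the higher in 35.5% and library 1 in 24.9%. A TPM can thus be higher in one library while the scaled count ratio points to the other. Paired values are library 1 first, and each SD is technical (n = 2 libraries).

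The kidney expressed nearly the whole set. Of the 46 genes, 39 reached TPM 1 in both libraries, 6 reached it only in library 2 (Car5a, Slc4a2, Slc4a3, Slc4a9, Slc26a6 and Rhbg), and 1, Slc4a5, stayed under it in both. Of all 15553 genes tested, 9373 reached TPM 1 in both, 3706 only in library 2 and 126 only in library 1, and 2348 stayed under it in both. The bicarbonate transporter gene Slc4a4 ranked first in library 1 at 189 TPM, and the proteolipid gene Atp6v0c ranked first in library 2 at 519 TPM. TPM was higher in library 2 for 42 genes and in library 1 for 4, Atp6v0d2, Car13, Slc4a7 and Slc26a7. Among all genes tested it was higher in library 2 for 12825 and in library 1 for 2683. For a low level in whole tissue, fewer cells of a type and less RNA per cell cannot be told apart. The library comparison is of 1 tissue sample, and the part of cell make-up in it was not tested.

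**Figure D1:**
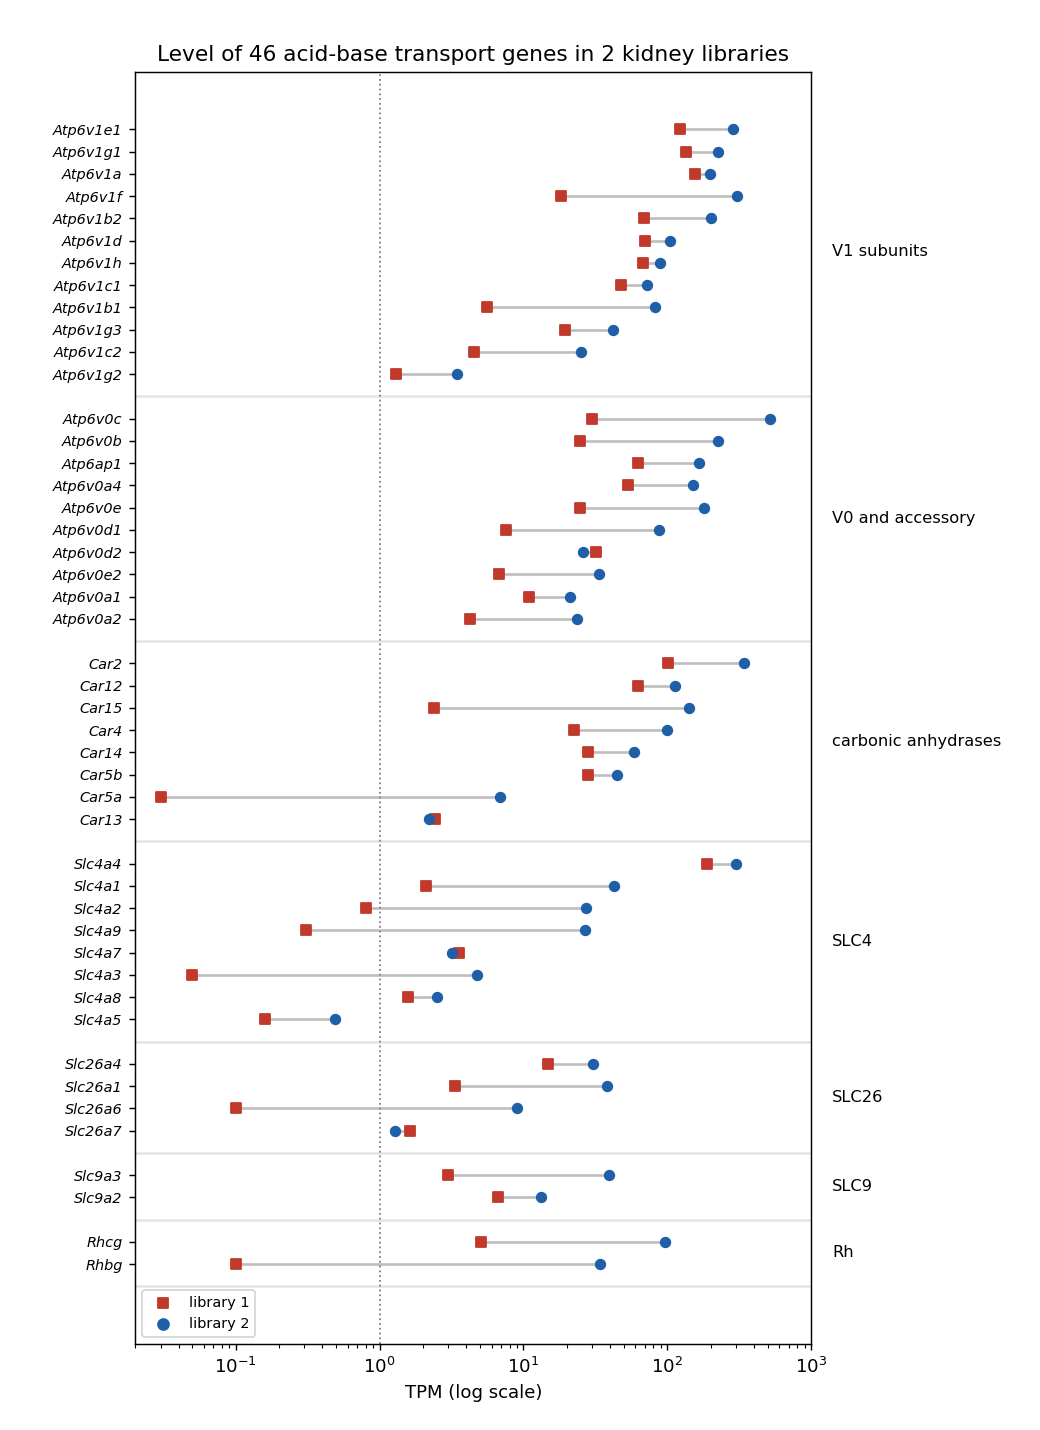
Level in TPM (log axis) of each of the 46 genes in library 1 (squares) and library 2 (circles), grouped by role and ordered by mean. The dotted line marks TPM 1, and 4 genes (Atp6v0d2, Car13, Slc4a7 and Slc26a7) have the square to the right of the circle.

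All 12 V1 genes reached TPM 1 in both libraries. The catalytic subunit gene Atp6v1a stood at 155 and 200 TPM (177 ± 31.3, mean ± SD, n = 2). Its partner in the catalytic ring is a B subunit, and the ubiquitous form Atp6v1b2 stood at 68.4 and 201 TPM. Atp6v1b1, the form of intercalated cells, stood at 5.59 and 82.5 TPM. Library 1 was thus the low one for both forms, but the gap was 14.8-fold for the intercalated form and 2.94-fold for the ubiquitous form, and Atp6v1b1 made up 7.56% and 29.1% of the pair. On the scaled counts only Atp6v1b1 was called, with a log2 ratio of 2.52 ± 0.09 (SE, adjusted p = 1.71e-267, exact binomial test), against 0.20 ± 0.02 for Atp6v1b2.

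The B genes encode closely related proteins, with 84.8% identical residues over 505 aligned, while their coding sequences share 75.3% of bases. A stretch of 120 coding bases is shown for each because their proteins are the same there (40 of 40 residues) and the sequences still differ at 17 bases, 15 of them at the last position of a codon. Capitals mark the differing bases. The stretch is bases 748 to 867 of the Atp6v1b1 coding sequence (gene at chr6:83742990-83758855, plus strand) and 766 to 885 of that of Atp6v1b2 (chr8:69088646-69113711, plus strand). Sequences and positions are those of GENCODE M21 on GRCm38 (mm10).
Atp6v1b1: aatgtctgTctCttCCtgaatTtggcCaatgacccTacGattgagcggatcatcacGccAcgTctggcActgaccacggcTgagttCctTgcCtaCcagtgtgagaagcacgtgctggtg
Atp6v1b2: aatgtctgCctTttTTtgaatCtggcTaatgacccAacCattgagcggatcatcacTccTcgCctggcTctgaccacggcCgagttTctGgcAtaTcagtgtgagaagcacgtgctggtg
Over the whole coding sequence G and C made up 55.8% of Atp6v1b1 and 50.3% of Atp6v1b2, and at the last positions of codons 69.5% and 53.9%.

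The stalk subunits of V1 join the catalytic ring to the membrane part. Atp6v1e1, of the outer stalk, stood at 122 and 288 TPM, and Atp6v1g1, the widespread G subunit beside it, at 136 and 225 TPM. The G subunit Atp6v1g3, which is typical of kidney, stood at 19.6 and 41.7 TPM, and Atp6v1g2, best known from brain, at 1.29 and 3.47 TPM. None of these 4 was called, and the order of the G genes was the same in both libraries, with Atp6v1g3 at 12.5% and 15.5% of their sum. Atp6v1d and Atp6v1f, of the central stalk, differed from each other. Atp6v1d stood at 69.7 and 105 TPM and was not called. Atp6v1f stood at 18.4 and 305 TPM with a log2 ratio of 2.69 ± 0.09 (SE). A processed pseudogene, AC169506.3, matches 51.2% of the Atp6v1f transcript, but no level was listed under that symbol. Another, Gm13453, matches 31.5% of the Atp6v1g1 transcript and was listed at 0 and 1.3 TPM. How reads were shared between these genes and their matches was not tested.

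The C and H subunits regulate how V1 attaches. Atp6v1c1, the common C form, stood at 48 and 72.4 TPM. Atp6v1c2 stood at 4.5 and 25.2 TPM and took 8.58% and 25.8% of the pair, with a log2 ratio of 1.22 ± 0.13 (SE, adjusted p = 4.05e-24, exact binomial test). Much of Atp6v1c2 was assigned to Atp6v1c2-204, a transcript annotated as a target of nonsense-mediated decay, which held 92.4% of its TPM in library 1 and 35.4% in library 2. The coding form Atp6v1c2-202 held 7.58% and 57.1%, on 14.3 and 321 counts. Atp6v1h stood at 67.4 and 89.6 TPM and was just short of a call (log2 ratio -0.93 ± 0.04, SE), whereas Atp6v1a was just past it at -1.03 ± 0.02 (SE) and counts as higher in library 1 although its TPM was higher in library 2. In all, 3 V1 genes were called higher in library 2 (Atp6v1b1, Atp6v1c2 and Atp6v1f), 1 in library 1 and 8 in neither, beside 35.5% and 24.9% of all genes.

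Atp6v1h also had a coding exon whose estimated share differed between the libraries. Atp6v1h-201, which contains it, held 61.5% and 86.6% of the gene's TPM, and Atp6v1h-204, which skips it, 36.8% and 7.65%. The exon is number 7 of 14, at chr1:5101070-5101123, plus strand (GENCODE M21), with 54 bases or 18 codons, and is shown because it is the internal difference between these transcripts.
Atp6v1h exon: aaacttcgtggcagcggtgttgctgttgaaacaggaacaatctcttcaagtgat
Both transcripts were counted mostly over shared sequence, and they also differ by 74 bases at the 5′ end and 110 at the 3′ end, so the share is an estimate of the authors' quantification and not a count of exon junctions.

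All 10 V0 and accessory genes reached TPM 1 in both libraries. The proteolipid ring that carries the protons was represented by Atp6v0c, at 29.9 and 519 TPM, and Atp6v0b, at 24.9 and 225 TPM. Both were called higher in library 2, with log2 ratios of 2.71 ± 0.05 and 2.63 ± 0.08 (SE), beside 35.5% of all genes. With the trend of the ratios over G and C content removed (fitted over all genes), each came to -0.25 and was not called. Atp6v0c has 2 processed pseudogenes that match 39.3% of its transcript at 97.2% and 99.8% identity, and Atp6v0c-ps2 itself was listed at 0 and 6.71 TPM. The small e subunit gene Atp6v0e stood at 24.6 and 179 TPM (log2 ratio 1.48 ± 0.07, SE), and its relative Atp6v0e2 at 6.74 and 33.3 TPM, short of a call at 0.94 ± 0.09 (SE). Atp6ap1, an accessory subunit needed for assembly, stood at 62.9 and 166 TPM and was not called.

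The a subunit forms the proton channel with the ring, and its form sets where the pump goes. Atp6v0a4, the form of intercalated cells whose loss in people causes distal renal tubular acidosis, led in both libraries at 53.6 and 150.5 TPM. It made up 78% and 77.1% of the sum of the 3 a genes of the set, and was not called (log2 ratio 0.10 ± 0.03, SE). Atp6v0a1 stood at 10.9 and 21.1 TPM. Atp6v0a2 stood at 4.22 and 23.6 TPM and was the only one of these 3 called (1.12 ± 0.09, SE; adjusted p = 5.84e-42, exact binomial test). The level of Atp6v0a1 in library 1 rested on short transcripts: the 828-base processed transcript Atp6v0a1-208 held 67.3% of its TPM there and 17% in library 2, and the full-length Atp6v0a1-202 1.39% and 56.6%. At the fixed length of its most-counted coding transcript, Atp6v0a1 would stand at 3.41 and 15.9 TPM.

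The d subunit couples the ring to the central stalk, and here the order of the forms was opposite in the libraries. Atp6v0d1, the ubiquitous form, stood at 7.57 and 88 TPM. Atp6v0d2, the form of intercalated cells and osteoclasts, stood at 32.1 and 25.9 TPM. Atp6v0d2 was therefore 80.9% of the pair in library 1 and 22.8% in library 2. On scaled counts Atp6v0d1 was called higher in library 2 (log2 ratio 2.17 ± 0.08, SE; adjusted p = 5.52e-197, exact binomial test) and Atp6v0d2 higher in library 1 (-1.67 ± 0.05, SE; adjusted p = 6.65e-227). The libraries thus differ on which d form led.

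The d genes are shown next because their coding sequences differ in base composition while the proteins are related (68.3% identical residues over 350). The stretch covers coding bases 622 to 741 in both, with 35 of 40 residues the same, and it differs at 31 bases, 21 of them at the last position of a codon. Capitals mark the differing bases. Atp6v0d1 lies at chr8:105524465-105566047 and Atp6v0d2 at chr4:19876841-19922605, both on the minus strand (GENCODE M21).
Atp6v0d1: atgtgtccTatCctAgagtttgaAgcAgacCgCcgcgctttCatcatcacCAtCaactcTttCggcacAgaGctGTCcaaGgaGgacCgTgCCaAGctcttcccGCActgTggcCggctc
Atp6v0d2: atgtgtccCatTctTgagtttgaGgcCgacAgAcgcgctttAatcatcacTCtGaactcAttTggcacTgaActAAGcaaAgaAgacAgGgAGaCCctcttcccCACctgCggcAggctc
G and C made up 68 of the 120 bases in Atp6v0d1 and 62 in Atp6v0d2, and 51.9% and 45.1% of the whole coding sequences. Over the transcript with most counts, untranslated parts included, the values were 53.4% and 41.6%.

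**Figure D2:**
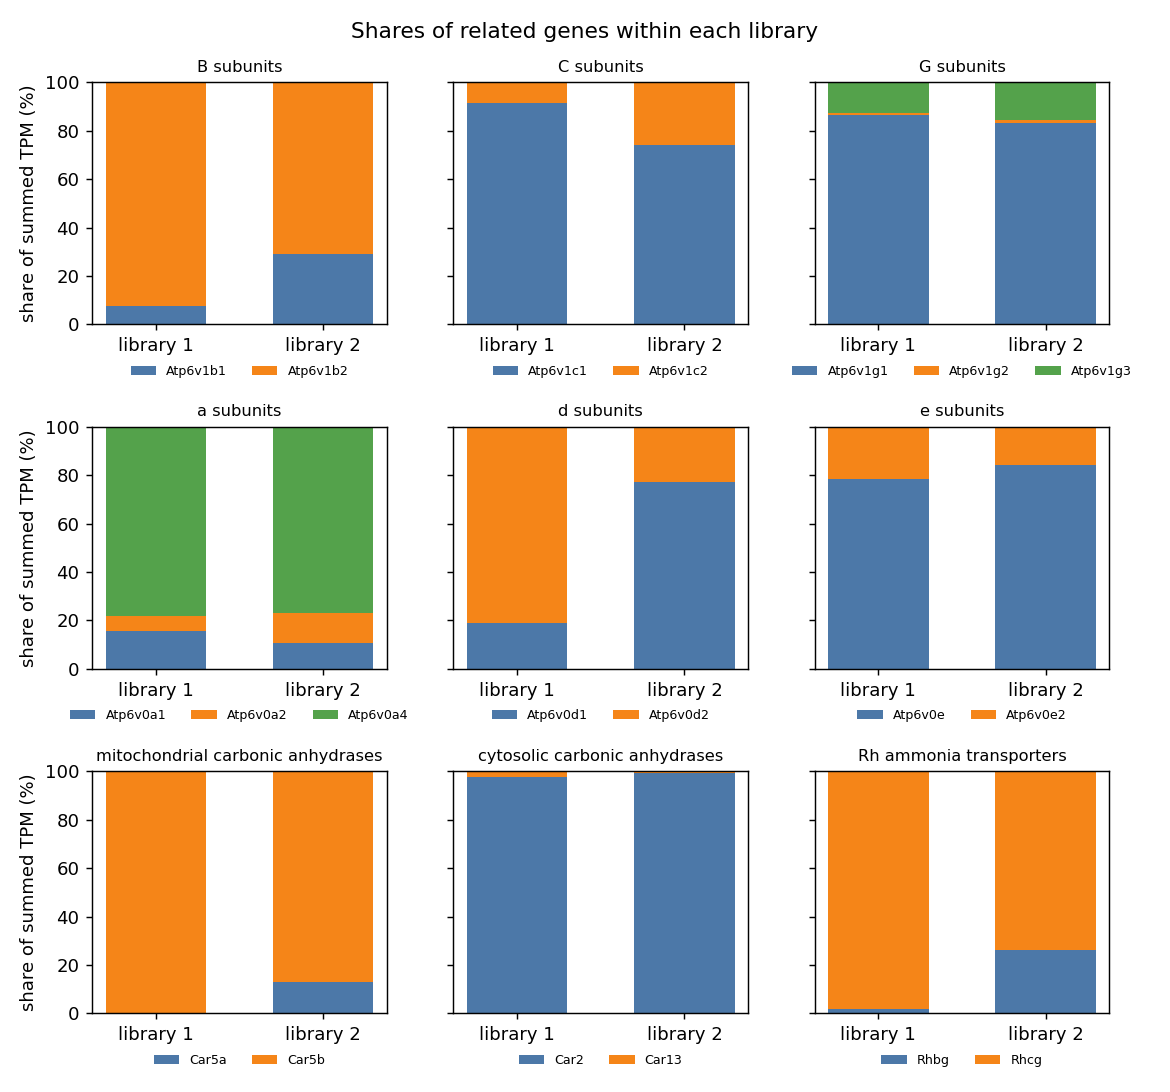
Share of summed TPM (%) that each related gene took within library 1 and library 2, for 9 families. The d subunits change order (Atp6v0d2 from 80.9% to 22.8%), and Atp6v0a4 leads the a subunits in both (78% and 77.1%).

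Over all 22 proton pump genes, 8 were called higher in library 2, 2 in library 1 and 12 in neither, beside 35.5% and 24.9% of all genes, and the summed TPM was 973 and 3069. Of the forms tied to intercalated cells, Atp6v1b1 was called higher in library 2, Atp6v0d2 in library 1, and Atp6v0a4 and Atp6v1g3 in neither. With the trend of the ratios over G and C content removed (fitted over all genes), the 22 genes gave 3 calls higher in library 2, 1 in library 1 and 18 in neither, beside 11.6% and 10.1% of all genes. Atp6v1b1 and Atp6v1g3 were then called higher in library 2, and Atp6v0d2 and Atp6v0a4 in neither.

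Among the carbonic anhydrases, Car2 was the most abundant in both libraries, and 7 of 8 genes reached TPM 1 in both. Car2, the cytosolic enzyme found in both tubule and red cells, stood at 101 and 338.5 TPM and was not called (log2 ratio 0.28 ± 0.03, SE). Car13, another cytosolic form, stood at 2.44 and 2.22 TPM and was called higher in library 1 (-1.5 ± 0.20, SE; adjusted p = 1.89e-14, exact binomial test). Of the membrane-bound enzymes, Car12 stood at 62.9 and 113 TPM and Car14 at 28.1 and 58.3 TPM, and neither was called. The enzymes anchored by a lipid tail, Car4 and Car15, were both called higher in library 2, beside 35.5% of all genes. With the trend over G and C content removed, Car15 kept the call (log2 ratio 1.87) and Car4 did not (0.51). Car4 stood at 22.6 and 99.9 TPM (log2 ratio 1.13 ± 0.07, SE), and Car15 at 2.4 and 142 TPM (4.51 ± 0.16, SE). Car15 ranked 35th of the 46 in library 1 and 13th in library 2. It overlaps Gm20518 on the same strand, over 65.7% of its exonic bases, while Gm20518 itself was listed at 0.03 and 2.15 TPM.

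The mitochondrial enzymes Car5a and Car5b, which feed bicarbonate to gluconeogenesis and ammonia metabolism, differed most within a pair. Car5b stood at 27.9 and 45 TPM and was not called (log2 ratio -0.67 ± 0.04, SE). Car5a stood at 0.03 and 6.83 TPM, from 1 and 119 counts. The scaled count ratio of Car5a was 86.8, with a 95% interval for counting error from 15.3 to 3455 (adjusted p = 1.15e-26, exact binomial test). Car5a was thus barely counted in library 1, and 1 read decides the size of its ratio.

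A stretch of their coding sequences shows how far the 2 differ in composition: bases 352 to 471 of Car5a (gene at chr8:121916126-121944904, minus strand) and 370 to 489 of Car5b (chrX:163976822-164027997, minus strand), with 32 of 40 residues the same and 30 differing bases in capitals.
Car5a: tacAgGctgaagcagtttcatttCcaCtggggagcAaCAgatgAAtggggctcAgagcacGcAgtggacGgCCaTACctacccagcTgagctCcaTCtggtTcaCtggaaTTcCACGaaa
Car5b: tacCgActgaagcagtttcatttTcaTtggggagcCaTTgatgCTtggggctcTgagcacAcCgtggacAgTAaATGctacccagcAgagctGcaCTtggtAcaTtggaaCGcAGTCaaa
G and C made up 58.2% of the Car5a and 49.3% of the Car5b coding sequence, and 57.3% and 43.6% of the transcript with most counts.

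Car12 appeared in 2 coding forms whose estimated shares differed between the libraries. Car12-201 held 45.9% of the gene's TPM in library 1 and 94.9% in library 2, on 3144 and 6225 counts, and Car12-202 held 52.7% and 2.29%, on 3525 and 147 counts. The longer form contains exon 9 of 11, at chr9:66762403-66762432, plus strand (GENCODE M21), which the other skips. The exon has 30 bases, so skipping it removes 10 codons and keeps the reading frame, and it is shown because the transcripts differ otherwise only at their ends, by 44 and 3 bases.
Car12 exon: gactgcttaccaacacaggactgagtttgg
By these estimates the forms stood near equal in library 1, and the form with the exon was nearly the only one in library 2. Both transcripts were counted mostly over shared sequence, so the shares are estimates of the authors' quantification and not counts of exon junctions.

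The SLC4 family carries bicarbonate, in exchange for chloride or together with sodium. Slc4a4, the sodium-bicarbonate cotransporter NBCe1 through which the proximal tubule returns bicarbonate to blood, led the family at 189 and 301 TPM. With 40898 and 24945 counts it was the best counted of the 46 genes, and its log2 ratio was -1.17 ± 0.01 (SE), so it was called higher in library 1 although its TPM was higher in library 2. Slc4a7, the electroneutral cotransporter NBCn1, stood at 3.54 and 3.16 TPM and was called the same way (-1.52 ± 0.09, SE; adjusted p = 2.84e-68, exact binomial test). Slc4a8, a sodium-driven chloride-bicarbonate exchanger, stood at 1.57 and 2.51 TPM and was not called. Slc4a5, the cotransporter NBCe2, stood at 0.16 and 0.49 TPM, on 24 and 34 counts, and was not called either (adjusted p = 1).

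The anion exchangers of the family were all called higher in library 2, beside 35.5% of all genes. Slc4a1, the exchanger AE1 of red cells and of the basolateral side of acid-secreting intercalated cells, stood at 2.09 and 42.6 TPM (log2 ratio 1.89 ± 0.09, SE; adjusted p = 1.55e-115, exact binomial test). Slc4a2, the widespread exchanger AE2, stood at 0.81 and 27.1 TPM on 20 and 1416 counts, a scaled count ratio of 51.6 (95% interval 33.3 to 84.8). Slc4a3, the exchanger AE3 best known from heart and brain, stood at 0.05 and 4.72 TPM on 11 and 231 counts, a ratio of 15.3 (8.4 to 31.1). Its coding transcript Slc4a3-202 held 11 and 34.8 of these counts. In library 2 the retained-intron Slc4a3-205 held 105 and Slc4a3-201, a target of nonsense-mediated decay, 69.9. Slc4a9, the exchanger AE4 of bicarbonate-secreting intercalated cells, stood at 0.31 and 26.8 TPM on 25 and 1147 counts, a ratio of 33.4 (22.5 to 51.9). Each of these exchangers was thus lower in library 1. All have 55% or more G and C, a range in which 3339 of 3612 genes tested were called higher in library 2. With the trend over G and C content removed, Slc4a2 (log2 ratio 1.19) and Slc4a9 (1.93) kept the call. Slc4a1 (-0.52) and Slc4a3 (0.084) were then not called. At the fixed length of the most-counted coding transcript Slc4a2 would stand at 0.16 and 21.6 TPM, Slc4a3 at 0.051 and 2.01 TPM, and Slc4a9 at 0.3 and 26.1 TPM. These values place all counts of a gene on that length, and Slc4a3-202 itself stood at 0.05 and 0.3 TPM. Slc4a2 overlaps Fastk on the opposite strand over 1141 bases, and no source used here says whether the counting used strand.

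Slc4a1 carries a limit in its TPM. In library 2 a 357-base processed transcript, Slc4a1-204, held 55.1% of the gene's TPM on 65.4 of 1435 counts (4.56%), and it was listed at 0 in library 1. At the fixed length of the coding transcript Slc4a1-201 the gene would stand at 2.09 and 20 TPM. Red cell markers differed between the libraries too: the 9 markers summed to 43.6 TPM in library 1 and 2409 TPM in library 2, with 3 at TPM 1 or more in both, 2 only in library 2 and 4 under it in both. That sum came from the globin genes, led by Hba-a2 at 10.1 and 931 TPM. Ank1, which encodes a protein of the red cell skeleton, stood at 0.04 and 0.15 TPM. The part of red cell RNA in the values of Slc4a1 and Car2 was not tested.

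Slc4a4 has 2 start regions in the annotation, and the estimates split differently between them. Transcripts from the upstream start (first base 88886818) held 86.7% and 58.5% of the TPM and 95.6% and 89.9% of the counts. Those from the internal start, near base 89027966, held 13.3% and 41.5% of the TPM and 4.4% and 10.1% of the counts. The longest transcript from the internal start has 3335 bases, against 7931 from the upstream start. Reads outside the internal-start transcripts were thus assigned to the upstream start, whichever start was used. The shares therefore do not measure the use of each start. The long Slc4a4-207 of 7931 bases made up nearly all of the upstream part at 164 and 176 TPM. The internal part shifted from Slc4a4-201, a 2518-base form at 19.2 and 13.8 TPM, to the 780-base Slc4a4-204, at 1.86 and 89.7 TPM. Short transcripts weigh heavily in TPM, and 869 counts on Slc4a4-204 gave 29.8% of the gene's TPM in library 2. At the fixed length of Slc4a4-207 the gene would stand at 171 and 196 TPM.

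The bases before the internal start are shown to describe this start region. Of its transcripts, Slc4a4-201 had the higher TPM in library 1 and Slc4a4-204 in library 2, and use of the start was not tested. The bases shown are chr5:89027716-89027965, plus strand, the 250 bases before the RefSeq start (GRCm38.p6), with each CG pair in capitals.
Slc4a4 internal: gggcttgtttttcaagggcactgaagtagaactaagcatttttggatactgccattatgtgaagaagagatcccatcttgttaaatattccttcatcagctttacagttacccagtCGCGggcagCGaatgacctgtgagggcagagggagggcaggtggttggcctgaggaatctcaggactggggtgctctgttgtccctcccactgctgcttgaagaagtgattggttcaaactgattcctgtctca
It held 3 CG pairs and 48.8% G and C, and 37.8% of the 32851 promoter windows of all genes held as few or fewer pairs. The window before the RefSeq upstream start, chr5:88887010-88887259, held 44 CG pairs and 82% G and C, and 0.54% of windows held as many or more. That RefSeq start, base 88887260, differs from the first base of the upstream transcripts in GENCODE, 88886818. The window thus lies within the span of Slc4a4-207 and not before it. The count of CG pairs is a description of these windows and no measure of their activity. RefSeq promoter windows were matched for 33 of the 46 genes.

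**Figure D3:**
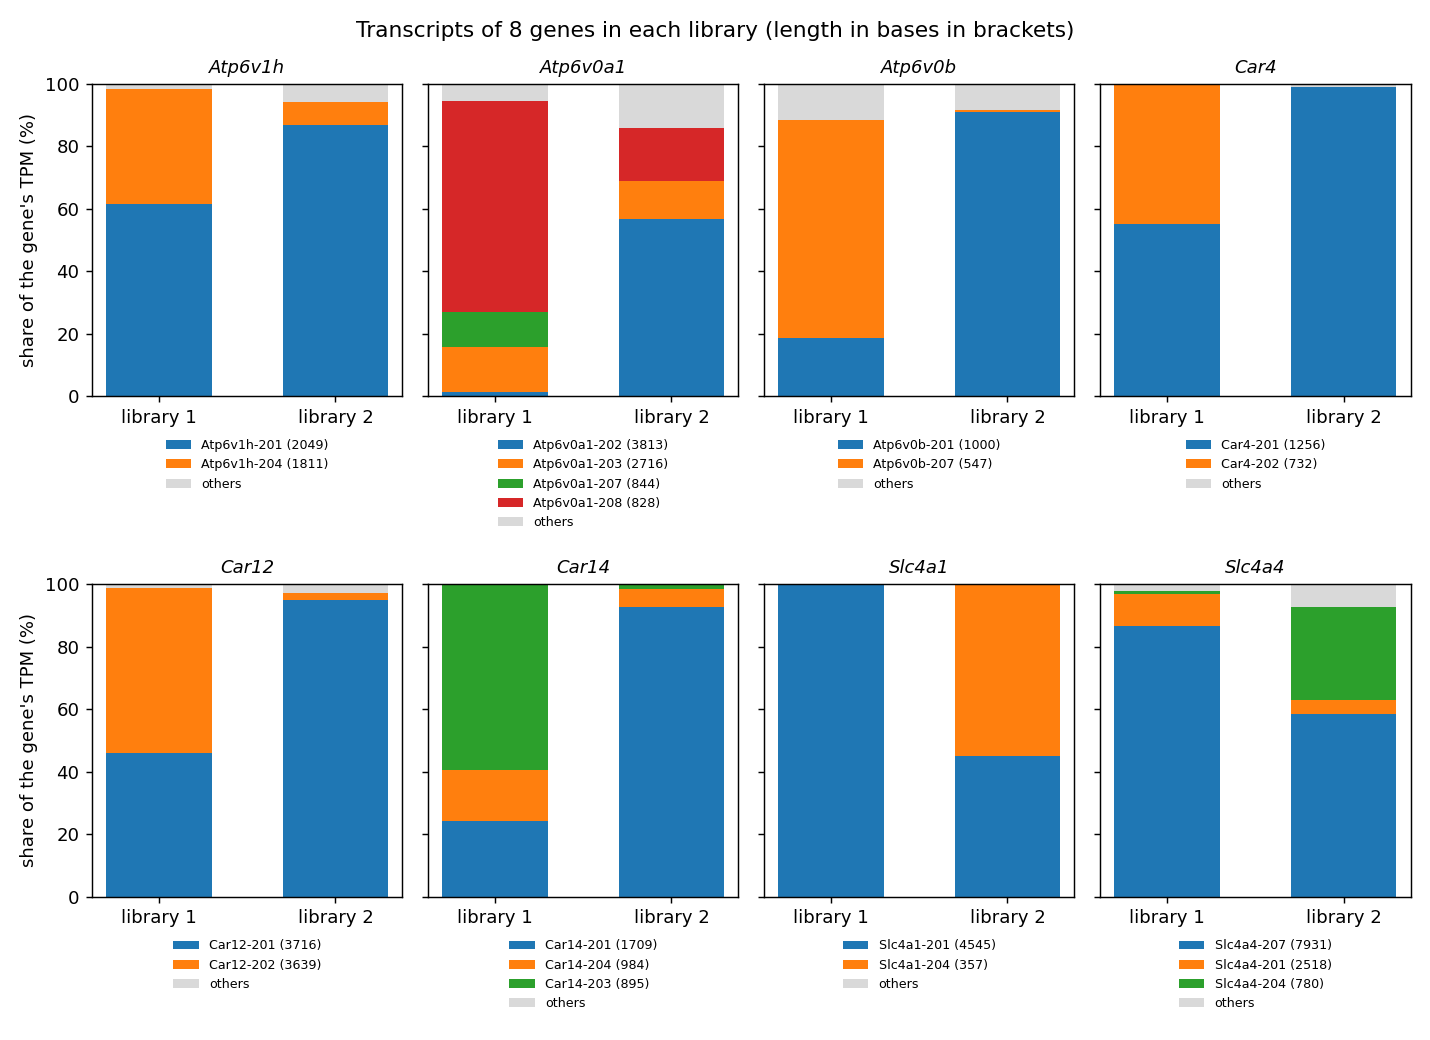
Share of each gene's TPM (%) held by its named transcripts in library 1 and library 2, for 8 genes, with transcript lengths in bases in brackets and unnamed transcripts in grey. The short transcripts Atp6v0b-207, Car4-202 and Car14-203 appear mainly in library 1, and Slc4a1-204 and Slc4a4-204 mainly in library 2.

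Short forms were not a feature of 1 library. The 547-base Atp6v0b-207 held 69.8% of its gene's TPM in library 1 and 0.69% in library 2, the 732-base Car4-202 held 45% and was listed at 0, and the 895-base Car14-203 held 59.5% and 1.44%. In each of these the full-length form led in library 2: Atp6v0b-201 at 90.9%, Car4-201 at 98.8% and Car14-201 at 92.8%. These 3 genes were picked for this description after their values were seen. Car14 overlaps Aph1a on the opposite strand by 445 bases. The mean transcript length behind the TPM differed by over 20% between the libraries in 10 of the 46 genes: Atp6v0a1, Atp6v0b, Car4, Car14, Slc4a1, Slc4a2, Slc4a3, Slc4a4, Slc4a8 and Slc26a6. By contrast, Slc9a3, Rhbg and Slc26a7 each had a single transcript at 100% in both libraries, although by the deposited posterior mean values Slc26a7-201 held 83.2% and 59.3%.

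Of the 4 SLC26 anion transporters, Slc26a4 and Slc26a1 were the most abundant. Slc26a4, the chloride-bicarbonate exchanger pendrin on the apical side of bicarbonate-secreting intercalated cells, stood at 14.8 and 30.3 TPM and was not called (log2 ratio -0.33 ± 0.06, SE). Slc26a1, a sulfate transporter of the basolateral proximal tubule, stood at 3.36 and 37.8 TPM and was called higher in library 2 (2.07 ± 0.08, SE; adjusted p = 2.46e-192, exact binomial test). Slc26a6, an apical exchanger of chloride, oxalate and bicarbonate, stood at 0.1 and 9 TPM on 9 and 157 counts (scaled count ratio 12.7, 95% interval 6.53 to 28.3). In library 2 the 418-base Slc26a6-203 held 56.2% of that TPM on 19 counts. Slc26a7, a chloride-bicarbonate exchanger of the medullary collecting duct, stood at 1.63 and 1.28 TPM and was called higher in library 1 (-1.70 ± 0.17, SE; adjusted p = 2.29e-26, exact binomial test). The TPM of library 2 over that of library 1 was 2.04 for pendrin and 0.785 for Slc26a7, against 11.3 for Slc26a1 and 90 for Slc26a6.

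The 2 apical sodium-proton exchangers also differed. Slc9a3, the exchanger NHE3 that carries most proton secretion in the proximal tubule, stood at 3 and 39 TPM (log2 ratio 2.34 ± 0.11, SE; adjusted p = 3.70e-154, exact binomial test). Slc9a2, the exchanger NHE2 of more distal segments, stood at 6.61 and 13.2 TPM and was not called (-0.38 ± 0.06, SE). Slc9a2 was thus the higher of the 2 in library 1 and Slc9a3 in library 2.

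Both Rh ammonia transporters were called higher in library 2, beside 35.5% of all genes. Rhcg, which moves ammonia across the apical membrane of the distal tubule and collecting duct, stood at 5.09 and 96.9 TPM (log2 ratio 2.80 ± 0.09, SE). Rhbg, on the basolateral side of the same cells, stood at 0.1 and 34.1 TPM on 5.24 and 979 counts, a scaled count ratio of 143 (95% interval 61 to 441). That ratio was the highest of the 46 genes, although its interval overlaps those of Car5a and of Slc4a2 (33.3 to 84.8). Gm38392, a gene model that overlaps 61.4% of the exonic bases of Rhbg on the same strand, was listed at 0.08 and 0 TPM.

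Between the libraries, 20 of the 46 genes were called higher in library 2, 6 in library 1 (Atp6v1a, Atp6v0d2, Car13, Slc4a4, Slc4a7 and Slc26a7) and 20 in neither. The 26 of 46 called are a share near the 60.5% of all genes. The median log2 ratio was 0.41 for the 46 genes and 0.12 for all genes tested. Scaling by total counts raised the median of all genes by 0.90 and gave 27 calls higher in library 2 and 0 in library 1. All 26 genes called under TMM kept their direction under total counts, but the 6 higher in library 1 then missed the 2-fold limit.

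The ratios of the 46 genes rose with the G and C content of their transcripts. All 11 genes with 55% or more G and C, from Slc4a1 to Slc4a2, were called higher in library 2, with a median log2 ratio of 3.89. Of the 18 genes from 50% to under 55%, 9 were called higher in library 2 and 9 were not called (median 1.03). Of the 8 from 45% to under 50%, 1, Slc4a4, was called higher in library 1 and 7 were not (median -0.42). Of the 9 under 45%, 5 were called higher in library 1 and 4 were not (median -1.03). Over all genes tested in the same 4 ranges the medians were 3.80, 1.07, -0.46 and -1.46. Of all genes in these ranges, 3339 of 3612, 1988 of 4012, 175 of 4031 and 16 of 3851 were called higher in library 2. Calls higher in library 1 numbered 20, 84, 715 and 3033. Spearman's rho between G and C content and log2 ratio was 0.91 across the 46 genes and 0.89 across 15506 genes, all measured in the same 2 libraries.

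**Figure D4:**
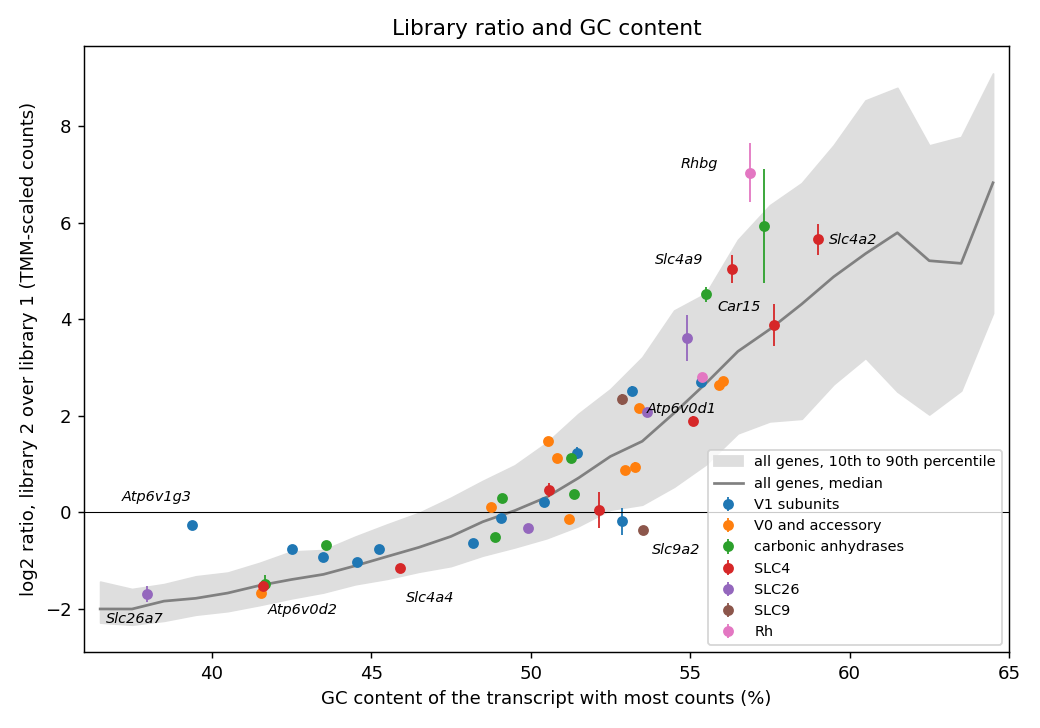
Log2 ratio of TMM-scaled counts (library 2 over library 1) against G and C content (%) of the transcript with most counts. Points are the 46 genes, colored by role, with bars of 1 SE from counting, the grey line and band are the median and the 10th to 90th percentile of all genes with at least 100 counts, and most points lie inside the band.

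With the trend over all genes removed, the spread of the 46 log2 ratios fell from an SD of 2.17 to 0.97. Then 10 genes were called higher in library 2, 2 in library 1 and 34 in neither, beside 21.7% of all genes called (11.6% higher in library 2 and 10.1% in library 1). The 10 were Atp6v1b1, Atp6v1g3, Atp6v0e, Car5a, Car15, Slc4a2, Slc4a9, Slc26a6, Slc9a3 and Rhbg, and the 2 were Atp6v1g2 and Slc9a2. Of the 26 genes called before, 9 had the same call and 0 the opposite call. Atp6v1g3 has 39.4% G and C and a log2 ratio near 0, so that it came out at 1.5 relative to genes of like composition. Slc9a2, with 53.5%, came out at -1.92, and Rhbg at 3.63. Atp6v0d2 came to -0.16 and Atp6v0d1 to 0.67, so neither d gene was called, and Slc4a4 came to -0.35. The part of base composition in the calls was not tested beyond this removal.

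Other genes of acid-base transport are given by list, with the calls after removal of the trend beside the first ones. For every list, the shares of all genes called higher were 35.5% in library 2 and 24.9% in library 1. With the trend removed these shares were 11.6% and 10.1%. Of 5 other V-ATPase subunit genes, 3 were tested: Rnasek (14.3 and 271 TPM) and Tcirg1, the a3 subunit of osteoclasts (0.06 and 12.9 TPM), were called higher in library 2, and Atp6ap2, the prorenin receptor (91.5 and 81.7 TPM), in library 1. With the trend removed, Tcirg1 alone was called, higher in library 2. Of the 11 genes in the list of pump assembly and regulation, 6 were called higher in library 1, 2 in library 2 and 3 in neither, against 0, 1 and 10 with the trend removed. Ncoa7 (43.1 and 32.9 TPM) and Atpaf1 (38.8 and 29.9 TPM) were among those higher in library 1, and Rogdi (0.21 and 81.4 TPM) was among those higher in library 2. Atpaf1 assembles the mitochondrial ATP synthase rather than the vacuolar pump, and without it 5 of 10 genes were called higher in library 1.

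Of 8 other carbonic anhydrases, 5 were tested, with 2 called higher in library 2, 1 in library 1 and 2 in neither, and with the trend removed 0 were called in either direction. Car3 was the most abundant (15.9 and 23.7 TPM), followed by Car8 (4.15 and 3.83 TPM) and Car7 (0.07 and 3.12 TPM). Among 16 other SLC4, SLC26 and SLC9 genes, 11 were tested, with 6 higher in library 2, 2 in library 1 and 3 in neither, against 1, 0 and 10 with the trend removed. Slc9a8, a sodium-proton exchanger of inner membranes, led that list at 23.1 and 172 TPM, above both apical exchangers. Of the 3 H,K-ATPase genes, Atp4a stood at 1.5 and 21.5 TPM and was called higher in library 2, Atp12a stood at 0.03 and 0.13 TPM and was not called, and Atp4b was listed at 0 in both, and with the trend removed neither of the 2 tested was called. Among 12 regulators and sensors, 5 were called higher in library 2, 2 in library 1 and 5 in neither, against 0, 4 and 8 with the trend removed. They included the scaffold Pdzk1 (112 and 621 TPM), Ahcyl1, which releases NBCe1 from inhibition (74.3 and 83.8 TPM), and Slc9a3r1, the scaffold of NHE3 (9.16 and 137 TPM).

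Markers of kidney cells were checked beside these values. Of 14 intercalated cell markers, 10 reached TPM 1 in both libraries and 4 only in library 2, and 5 of the 14 are among the 46 genes. The other 9 summed to 48 and 113 TPM, with 3 called higher in library 2, 1 in library 1 and 5 in neither, beside 35.5% and 24.9% of all genes. With the trend removed these counts were 0, 3 (Aqp6, Hmx2 and Dmrt2) and 6, beside 11.6% and 10.1% of all genes. Foxi1, the transcription factor that defines intercalated cells, stood at 7.5 and 21.5 TPM and was not called. All 8 proximal tubule markers and all 5 thick ascending limb markers reached TPM 1 in both libraries, as did 5 of 7 principal cell, 3 of 4 distal convoluted tubule and 7 of 7 endothelial markers. Leukocyte markers reached it in both libraries for 2 of 7, urothelium markers for 1 of 5 and adipocyte markers for 2 of 5.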

How the data were processed

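Polyadenylated RNA of 1 kidney sample was sequenced in 2 libraries, labelled technical replicates. The authors deposited tables of genes and of transcripts (mm10, annotation M4), per the text deposited with them. No source used here names the aligner or the quantifier. Expected counts (estimated reads, not whole numbers), TPM and, for transcripts, the percent of each in its gene were deposited, per the file headers.

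Symbols and coordinates came from GENCODE M21 (42462 of 43346 rows matched). Rounded expected counts were scaled with TMM sizes (edgeR 4.0.16). A single library on each side leaves no spread for a quasi-likelihood fit. An exact conditional binomial test, two-sided (scipy 1.17.1), was used instead for the 15553 genes with a summed count of 10 or more. Calls required a Benjamini-Hochberg adjusted p under 0.05 and a log2 ratio (prior count 0.5) of at least 1 in size. G and C content was that of the reference transcript with most counts. For Atp6v1d, Atp6v0a2 and Slc4a7 its length differed from the deposited one by over 10%. Its trend was fitted by lowess (span 20%, genes of 100 counts or more). Matches between genes came from blastn 2.17.0 (95% identity over 25% of a transcript, the latter set after seeing the data). SE, intervals and p-values cover counting error only; a count of 0 allows up to 3. The 46 genes and all lists were chosen with earlier results of these data known. Every one of the 46 is named, as are the 3 of highest mean TPM in each of the 6 lists of other acid-base genes, except some list members that are not reported here, while most marker lists are given as counts. Of 124 symbols in those lists, 123 were found. Alternatives were DESeq2 1.42.0 size factors, total counts, removal of the trend, other priors, filters and limits, posterior mean values, TPM without mitochondrial genes, a fixed transcript length, and leaving out a library.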

Additional observations from a re-analysis of the deposited data

How the results depend on the processing

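Calls and directions were the same under DESeq2 size factors, posterior mean counts and a prior count of 2 for all 46 genes, and a filter of 1 or 100 counts left both counts of calls as they were. Removing the G and C trend gave 10 genes higher in library 2 and 2 in library 1 and a median log2 ratio of 0.16 in place of 0.41, and turned the direction of 16 genes: Atp6v1a 0.036, Atp6v1b2 -0.12, Atp6v1c1 0.17, Atp6v1d 0.60, Atp6v1g3 1.5, Atp6v1h 0.31, Atp6v0a1 -0.42, Atp6v0b -0.25, Atp6v0c -0.25, Atp6v0e2 -0.49, Car5b 0.55, Car13 0.00019, Car14 -0.29, Slc4a1 -0.52, Slc4a5 -0.90 and Slc26a7 0.20. Total counts gave 27 and 0 calls and a median of 1.32, and turned 11 genes, none of them called with TMM: Atp6v1c1 0.14, Atp6v1d 0.13, Atp6v1e1 0.78, Atp6v1g1 0.27, Atp6v1g2 0.70, Atp6v1g3 0.63, Atp6ap1 0.76, Car5b 0.23, Car12 0.39, Slc26a4 0.57 and Slc9a2 0.53. The cause of these changes was not tested. A 4-fold limit left 15 genes higher in library 2 and 0 in library 1. Without the 6 genes that share sequence with another gene, 16 and 6 were called, an alternative chosen after seeing the data. The median TPM of the 46 genes was 33.6 over both libraries, 79.6 after rescaling without mitochondrial genes and their copies (a smaller sum to divide by), and 9.23 to 43.8 with 1 library left out. The number at TPM 1 in both libraries was 39 (41 after that rescaling, and 39 to 45 with 1 library left out). No paired analysis was possible because the libraries form 1 group. With 1 library on each side no difference has a replicate check, and library 1 gave only 1 to 25 counts for Car5a, Rhbg, Slc26a6, Slc4a3, Slc4a2, Slc4a5 and Slc4a9.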
